A study of Caenorhabditis elegans with 12 samples.

Results

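Germlines that lack MES-4 or LIN-54 were compared with each other directly, gene by gene. The comparison takes the 3 arrays of *mes-4(ok2326)* and the 3 arrays of *lin-54(n3423)* out of 12 in the study, and all 17118 genes that the platform annotation assigns to a probe set of their own, 2360 of them X-linked, 14750 autosomal and 8 mitochondrial. All animals were adult *Caenorhabditis elegans* hermaphrodites 24 hr past the L4 larval stage, raised at 20 °C. The *mes-4* allele is a deletion that takes out much of the catalytic SET domain and still leaves a shortened transcript, and the *lin-54* allele is a deletion of most of the open reading frame. Mutants were M+Z-, homozygotes whose heterozygous mothers carried a balancer chromosome, so that their germ cells began with maternal product. The *lin-54*; *mes-4* double mutant and wild type (3 arrays each) serve here to place the values. Their arrays also enter the estimate of spread behind each SE and q, since the model was fitted to all 12 arrays. Each sample was amplified RNA from 50 to 70 dissected gonad arms, cut to hold the stretch from the mitotic tip through late pachytene. Each allele was used in 1 strain, so a linked change cannot be told apart from the loss of the gene.

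MES-4 is a methyltransferase that places methyl groups on lysine 36 of histone H3 along genes that germ cells express, and its loss is known to raise transcripts from the X chromosome in the germline. LIN-54 is a DNA-binding subunit of DRM, a complex related to the Rb and E2F repressors of other animals. In the *C. elegans* germline both X chromosomes are kept at low expression, and few genes with a core germline role are X-linked. The direct comparison asks how far apart the transcriptomes of these mutants lie, on which chromosomes, and in which genes.

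Levels are normalized log2 values of probe sets, so a difference of 1 is 2-fold, and a value near 6 or less is dim on these arrays. Array medians of the 6 mutant samples ran from 5.81 to 5.93. Correlations were 0.989 to 0.995 between arrays of 1 genotype and 0.96 to 0.98 between a *mes-4* and a *lin-54* array. The first principal component of the 6 arrays held 70.1% of the variance and separated the genotypes. Germ cell markers (*glh-1*, *pgl-1*, *him-3*, *htp-3*, *glp-1*, *gld-1*) summed to 13.5 to 13.8 in *mes-4* and 13.7 to 13.8 in *lin-54* on the log2 scale, and the defining markers of coelomocytes, body wall muscle and hypodermis summed to no more than 6.46, 8.54 and 8.88 on any of the 6 arrays. Neuronal markers summed to 10.8 to 11.3, led by *snb-1*, which read 10.76, 10.74 and 11.16 in *mes-4* and 10.60, 10.72 and 10.76 in *lin-54*. The means of *rab-3*, *unc-119* and *unc-64* were 7.03, 6.53 and 4.67 in *mes-4* and 7.35, 6.08 and 4.49 in *lin-54*. Intestinal markers varied between arrays of 1 genotype, from 9.4 to 12.8 in *mes-4* and 9.12 to 11.6 in *lin-54*, led by the yolk protein gene *vit-6*, which read 12.33, 9.98 and 8.25 in *mes-4* and 10.40, 11.03 and 7.46 in *lin-54*. The part of intestinal RNA in the differences below was not tested.

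The targeted genes came first, as a check of the labels. *lin-54* itself read 6.40, 7.76 and 6.32 on the *lin-54* arrays and 10.77, 10.69 and 10.88 on the *mes-4* arrays, a log2 difference (*mes-4* minus *lin-54*) of 3.95 ± 0.30 (SE, limma). Its second *lin-54* array was brighter than the others and still far under every *mes-4* array. *mes-4* read 9.22, 9.01 and 9.05 in *mes-4* and 9.70, 9.77 and 9.76 in *lin-54*, a difference of −0.65 ± 0.10. The groups did not overlap for either gene. Whether the probe sets of *mes-4* lie in its deleted part was not tested.

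At a Storey q at or below 0.05 from limma, 2193 genes were higher in *mes-4* than in *lin-54* (12.8% of all genes) and 3632 were lower (21.2%). Together 34.0% of genes were called, and the 3 values of each group did not overlap for 40.3% of all genes, or 48.6% of X-linked and 39.0% of autosomal genes. The sizes of the calls differed between the directions. Of the 2193 higher genes 747 were over 2-fold (4.36% of all genes), and of the 3632 lower genes 131 were over 2-fold (0.765%), with 3141 under 1.5-fold. The median difference over all genes was −0.11, and with each array centred on its autosomal median the calls became 2615 higher and 1204 lower (68.5% higher, against 37.6% without centring). The count of lower genes also changed with single arrays, to 1871 without *lin-54* replicate 3, 1877 without *mes-4* replicate 3 and 2384 without *lin-54* replicate 2, while the count of higher genes stayed between 1659 and 2252 when any 1 array was left out. In dissected tissue, fewer cells of a type and less RNA per cell cannot be told apart.

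On the X chromosome the differences over 2-fold all had 1 direction, and on the autosomes they had both. Of the 2360 X-linked genes 669 (28.3%) were higher in *mes-4*, 421 of them over 2-fold (17.8%), while 389 (16.5%) were lower and 0 of those exceeded 2-fold. On the autosomes 1524 of 14750 genes (10.3%) were higher, 326 over 2-fold (2.21%), and 3243 (22.0%) were lower, 131 over 2-fold (0.888%). The median of the called increases was 1.27 on the X and 0.54 on the autosomes, and the medians of the called decreases were −0.31 and −0.35. With 2360 of the 17118 genes, the X chromosome held 421 of the 747 increases over 2-fold.

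Within an array the median X-linked gene lay under the median autosomal gene in every sample. This gap was −0.25, −0.23 and −0.23 on the *mes-4* arrays and −0.37, −0.39 and −0.39 on the *lin-54* arrays. The groups did not overlap, and their means differed by 0.145 (exact two-sided permutation test, 3 against 3 arrays, p = 0.1, the smallest this design allows). Wild type read −0.32, −0.32 and −0.35 and the double mutant −0.33, −0.29 and −0.31, between the single mutants. The upper quartile of X-linked levels was 6.56 to 6.65 in *mes-4* and 6.26 to 6.36 in *lin-54*. The X-linked medians themselves overlapped, at 5.56, 5.64 and 5.52 in *mes-4* and 5.53, 5.53 and 5.54 in *lin-54*. Autosomal medians were lower in *mes-4* without overlap, at 5.81, 5.87 and 5.75 against 5.89, 5.92 and 5.94. The smaller gap in *mes-4* is therefore not by itself a rise of the median X-linked gene.

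**Figure D1:**
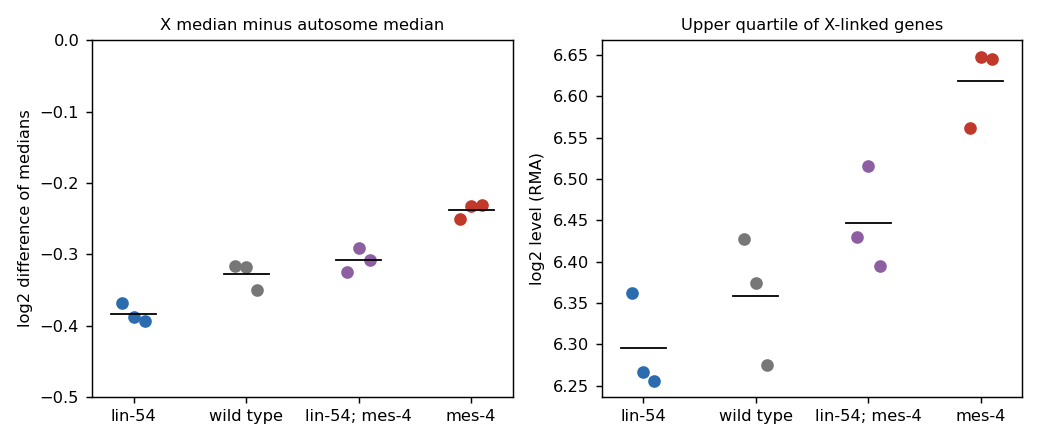
Each point is 1 array and each bar a group mean (n = 3). Left, median log2 level of X-linked genes minus that of autosomal genes within the array. Right, upper quartile of X-linked log2 levels. *mes-4* arrays lie highest (−0.25 to −0.23 at left) and *lin-54* arrays lowest at left (−0.39 to −0.37), with wild type and the double mutant between them.

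The share of X-linked genes that differed depended on how bright the gene was in wild type. Wild-type arrays take no part in the difference itself and enter only its estimated spread. Among the 1499 X-linked genes at or under a wild-type level of 6, 13.9% were higher in *mes-4* and the median difference was −0.11. Between 6 and 8 it was 48.9% of 758 genes, with a median of 0.29. Between 8 and 10 it was 84 of 96 genes (87.5%), 80 of them over 2-fold, with a median of 2.05 and quartiles of 1.34 and 2.57. All but 1 of the 7 X-linked genes between 10 and 12 were also higher, 6 of 7, with a median of 2.56. The share of autosomal genes that were higher also rose, from 4.19% at or under 6 to 15% between 6 and 8. In each of these bins it stayed under that of X-linked genes. Between 8 and 10, 361 of 1918 autosomal genes were higher (18.8%) and 480 lower, with a median of −0.06. Of 1950 autosomal genes between 10 and 12, 17.9% were higher and 21.9% lower. A gene near background can read a compressed change, and how far this bears on the dimmest bin was not tested.

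**Figure D2:**
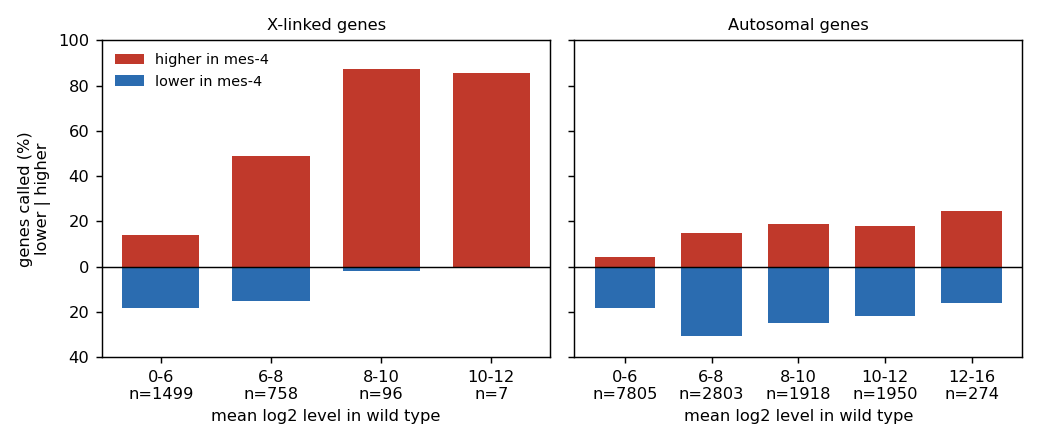
Share of genes called at q at or below 0.05, higher in *mes-4* (red, upward) or lower (blue, downward, also in percent), by mean log2 level in wild type, with the number of genes under each bar. The red share on the X climbs from 13.9% of the dimmest genes to 87.5% of those between 8 and 10. On the autosomes it runs from 4.19% of the dimmest genes to 24.5% of the brightest.

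Among the largest X-linked increases were genes of vesicle traffic, of a kinase subunit and of an organelle fission factor. *vps-52*, a subunit of the GARP complex that tethers vesicles at the Golgi, read 6.35, 6.03 and 5.69 in *lin-54* and 9.59, 10.20 and 10.08 in *mes-4*. The difference was 3.93 ± 0.19 on the log2 scale (15.3-fold, q = 2.71e-07), and the groups did not overlap. *trpp-9*, a subunit of the TRAPP trafficking complex, read 5.51, 4.88 and 4.66 against 8.10, 9.44 and 9.15, a difference of 3.88 ± 0.35 (q = 1.62e-05). *aakg-2*, a gamma subunit of the AMP-activated kinase, read 5.44, 5.21 and 4.65 against 8.23, 9.29 and 9.42 (3.88 ± 0.35), and without shared probe set types its difference was 1.98. In all of these the first *mes-4* array was the lowest of its group and the first *lin-54* array the highest of its group, and the groups stayed apart. *fis-2*, a homolog of the organelle fission factor Fis1, read 6.86, 5.62 and 5.63 against 9.19, 10.19 and 10.35, a difference of 3.87 ± 0.39 (14.7-fold).

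Wild type placed most of these differences on the *mes-4* side. Wild-type means were 6.70 for *vps-52*, 6.20 for *trpp-9*, 6.13 for *aakg-2* and 7.27 for *fis-2*, nearer *lin-54* in each case. *vps-52* exceeded wild type in *mes-4* by 3.26 (q = 5.7e-06) and differed from it in *lin-54* by −0.67 (q = 0.0496). Both of these contrasts use arrays of the direct comparison and share the wild-type arrays. The double mutant lay near *mes-4* for these genes, with means of 9.81, 8.54, 8.50 and 10.08 in the same order.

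The largest value of all, for the elongation factor gene *eef-1A.2*, was 4.05 ± 0.57 from a probe set of a type that can share sequence with other genes. That probe set read 8.91, 7.27 and 7.25 in *lin-54* and 10.85, 12.48 and 12.23 in *mes-4*. The probe set of the gene that is of no shared type gave a difference of 0.06 (q = 0.308), so the change of *eef-1A.2* is uncertain.

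**Figure D3:**
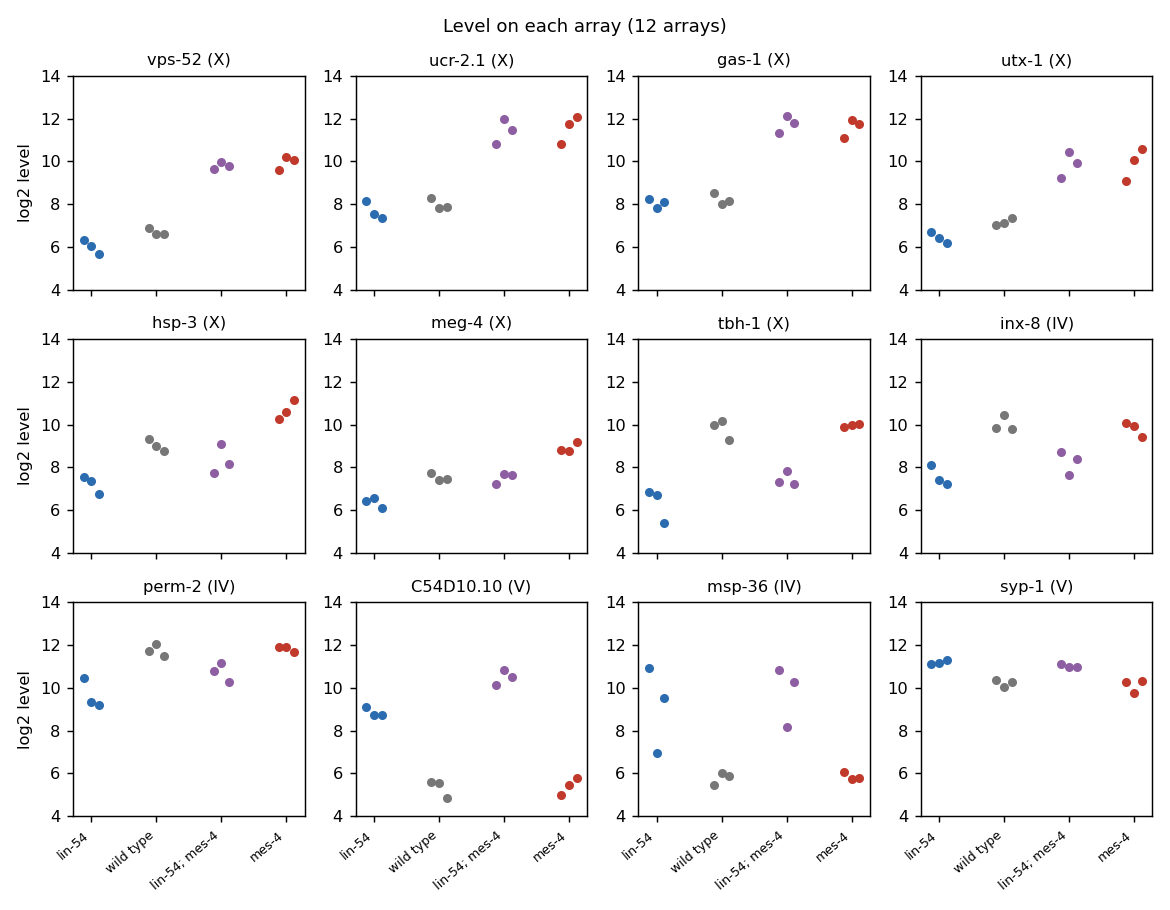
Log2 level of 12 genes on each of the 12 arrays (chromosome in brackets), grouped as *lin-54* (blue), wild type (grey), double mutant (purple) and *mes-4* (red). In *vps-52*, *ucr-2.1*, *gas-1* and *utx-1* wild type lies near *lin-54* and the double mutant near *mes-4*, in *tbh-1*, *inx-8* and *perm-2* wild type lies near *mes-4*, and in *C54D10.10* and *msp-36* wild type and *mes-4* lie under *lin-54*.

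X-linked genes lower in *mes-4* differed by little, and 384 of the 389 were under 1.5-fold. The largest was *C52B11.4*, which read 7.85, 7.97 and 7.74 in *mes-4* and 8.72, 8.72 and 8.75 in *lin-54* (−0.88 ± 0.11, q = 0.000116), with wild type at 8.78. *cab-1*, taken from the neuronal list, read 5.22, 5.29 and 5.19 against 6.07, 6.04 and 6.16 (−0.86 ± 0.12), and here wild type, at 5.40, stood with *mes-4*. The stomatin gene *unc-1* differed by −0.60 ± 0.11, *C10A4.3* by −0.77 ± 0.16 and *F09A5.2* by −0.56 ± 0.11. *F15G9.1* differed by −0.63 ± 0.26 (q = 0.0435) and lost its call in 11 of the alternatives, with −0.27 (q = 0.1) without *lin-54* replicate 1. Without *mes-4* replicate 2 it kept its call, at −0.41 from its other probe set.

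Chromatin regulators were among the genes that separated the mutants. Of 23 synMuv and other chromatin genes on the array 14 were higher in *mes-4* (60.9%) and 1 lower (4.35%), against 12.8% and 21.2% of all genes. Their median was 0.38, and all 6 X-linked members were higher, with a median of 2.20. *utx-1*, which encodes a demethylase of lysine 27 on histone H3, read 6.69, 6.41 and 6.20 in *lin-54* and 9.08, 10.08 and 10.56 in *mes-4*, a difference of 3.47 ± 0.36 (11.1-fold, q = 3.5e-05). *lin-15B* and *lin-15A*, synMuv genes of class B and class A that share an operon, differed by 2.73 ± 0.15 (6.64-fold) and 2.21 ± 0.19 (4.63-fold), and *lin-15B* read 6.29, 6.08 and 6.20 against 8.77, 9.04 and 8.95 with wild type at 6.61. The other X-linked members were the LSD1 family demethylase gene *lsd-1* (2.19), the HP1 gene *hpl-1* (1.24 ± 0.15) and *jmjd-3.1*, an H3 lysine 27 demethylase gene (0.49).

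Autosomal members moved less. The nuclear corepressor homolog *gei-8* differed by 1.82, *hda-1*, a class I histone deacetylase, by 0.49, and *met-2*, an H3 lysine 9 methyltransferase, by 0.39. *hpl-2*, the autosomal HP1 gene, was the 1 member that was lower, by −0.40 ± 0.13 (q = 0.0237). That call was lost when arrays were centred and without *lin-54* replicate 1 (−0.34) or 3 (−0.31). *met-2* was not called without *lin-54* replicate 2 (0.38), *lin-54* replicate 3 (0.32) or *mes-4* replicate 1 (0.32), nor *hda-1* without *mes-4* replicate 3 (0.38). *gei-8* stayed called without *lin-54* replicate 2 (1.14) or *mes-4* replicate 2 (1.20).

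Of 8 DRM subunits *lin-54*, the deleted gene, and *lin-52* (0.52 ± 0.16) were called, where 34.0% of all genes were. The call of *lin-52* was lost without *lin-54* replicate 3 (0.42, q = 0.0715). *efl-1*, the E2F subunit, differed by −0.25 ± 0.11 (q = 0.0581) and *lin-53*, a histone-binding WD40 protein, by 0.17 ± 0.10 (q = 0.0935), neither past the threshold. Of 7 genes for MES proteins and related histone methyltransferases, *mes-4* was lower, and the COMPASS methyltransferase gene *set-2* (0.42 ± 0.14) and *met-1* (0.46 ± 0.16), which acts on H3 lysine 36, were higher. Both calls were lost with the Benjamini-Hochberg adjustment (adjusted p = 0.0531 and 0.0626) and without *lin-54* replicate 2, *lin-54* replicate 3 or *mes-4* replicate 1, and that of *met-1* also without *mes-4* replicate 3, where the differences were 0.37 to 0.44 and 0.36 to 0.44. *mes-3*, a partner of the H3 lysine 27 methyltransferase, differed by 0.45 ± 0.24 (q = 0.086).

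Genes of dosage compensation and sex determination gave 7 higher (30.4%) and 1 lower (4.35%) of 23, with a median of 0.19. The shares of all genes were 12.8% and 21.2%, and 3 of the 7 higher members were X-linked. *sdc-1*, an X-linked gene whose product helps load the somatic dosage compensation complex, read 5.51, 5.35 and 4.94 in *lin-54* and 7.23, 7.32 and 7.97 in *mes-4* (2.24 ± 0.22, q = 2.66e-05), with no overlap. *xol-1*, the X-linked switch gene of male fate, differed by 1.32 ± 0.19, with values of 5.12, 4.89 and 4.99 and 6.92, 5.98 and 6.06. Its probe set is of a shared type, and its other probe set gave 0.13 (q = 0.154). *sea-2*, an autosomal regulator of *xol-1*, differed by 1.18 ± 0.14 and *sdc-3* by 1.000 ± 0.17, with *sdc-2* and *sea-1* at 0.92 and 1.03. The call of *sea-1* was lost without *lin-54* replicate 2 (0.86), *lin-54* replicate 3 (0.72) or *mes-4* replicate 3 (0.79). *tra-1*, the terminal regulator of female fate, was the 1 that was lower (−0.69).

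Oxidative phosphorylation split by chromosome. Of 43 genes on the array all 6 X-linked members were higher in *mes-4*, with a median of 3.14, and 19 of the 37 others were lower and 0 higher, with a median of −0.23. For comparison, 28.3% of all X-linked genes were higher. That share was 48.9% at wild-type levels of 6 to 8 and 87.5% at 8 to 10. Of all autosomal genes 22.0% were lower and 10.3% higher. *ucr-2.1*, a core subunit of complex III, read 8.15, 7.55 and 7.35 in *lin-54* and 10.84, 11.77 and 12.06 in *mes-4* (3.87 ± 0.35, q = 1.59e-05). *gas-1*, a subunit of complex I, read 8.25, 7.82 and 8.12 against 11.12, 11.96 and 11.73 (3.54 ± 0.24, 11.6-fold). Every *mes-4* array exceeded every *lin-54* array for both genes, and wild type, at 7.99 and 8.24, stood with *lin-54*. The other X-linked members were the ATP synthase genes *asg-2* (2.32 ± 0.41) and *asb-2* (3.34 ± 0.53), *sdha-1* (2.94 ± 0.40, or 1.49 as the mean of its probe sets) of complex II and *ucr-2.2* (2.27 ± 0.48) of complex III.

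Each of these X-linked genes has an autosomal relative of the same family. *ucr-2.3* read 12.46, 12.54 and 12.46 in *lin-54* and 12.11, 12.03 and 11.97 in *mes-4* (−0.45 ± 0.10), and *asg-1* differed by −0.30 ± 0.08 with a call lost under centring. *nduf-2.2*, the relative of *gas-1*, differed by −0.30 ± 0.13 (q = 0.0556), *asb-1* by −0.15 ± 0.09 (q = 0.111) and *sdha-2* by −0.20 ± 0.10 (q = 0.0803), none of them past the threshold. For these pairs the mutant germlines differed in the X-linked copy by 2.27 to 3.87 on the log2 scale. The decreases of the autosomal subunits were all under 1.5-fold, from −0.22 for *cox-5B* to −0.54 for *hpo-18*, and 8 of the 19 were called with arrays centred. *cox-5B* was not called without *mes-4* replicate 1 (−0.16) or *lin-54* replicate 2 (−0.175) or 3 (−0.25).

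**Figure D4:**
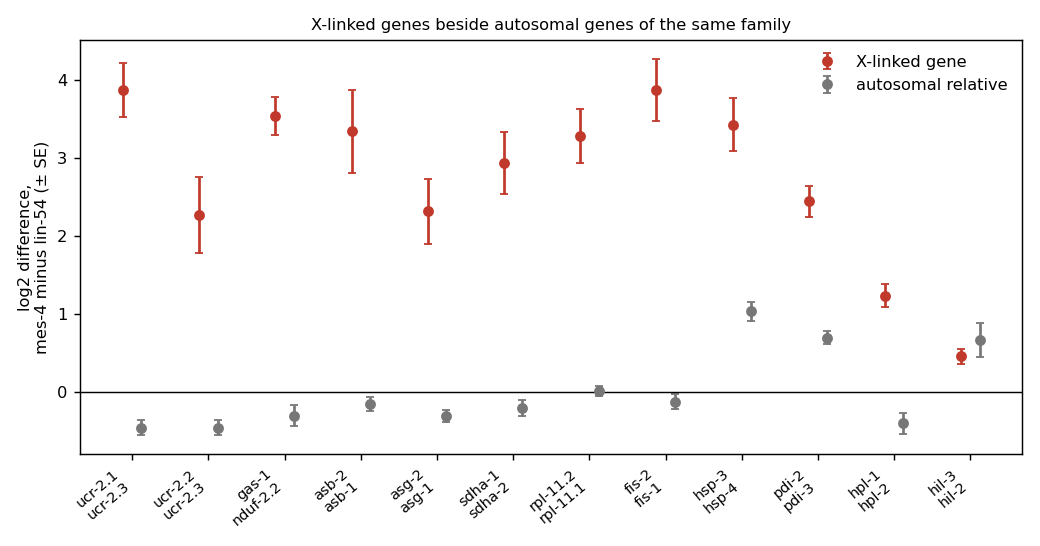
Log2 difference between *mes-4* and *lin-54* (± SE, limma) for X-linked genes (red) and autosomal genes of the same family (grey). The X-linked genes range from 0.46 (*hil-3*) to 3.87 (*fis-2*, *ucr-2.1*), and the autosomal relatives from −0.45 (*ucr-2.3*) to 1.04 (*hsp-4*).

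Pairs of this kind also occurred outside the respiratory chain. *rpl-11.2*, an X-linked gene for a protein of the large ribosomal subunit, read 10.87, 9.85 and 9.43 in *lin-54* and 12.71, 13.61 and 13.67 in *mes-4* (3.28 ± 0.35, q = 4.36e-05), and its autosomal relative *rpl-11.1* read 13.98, 13.99 and 13.88 and 13.92, 13.99 and 13.99 (0.02 ± 0.07). *fis-1* differed by −0.12 ± 0.10 beside the 3.87 of *fis-2*, at a level under 5 in every group. The linker histone genes *hil-3* (X, 0.46 ± 0.09) and *hil-2* (IV, 0.67 ± 0.22) were an exception, in that the X-linked one did not differ more than its relative, and so were the Argonaute genes *alg-1* (X) and *alg-2* (II), given with the small RNA pathways. The call of *hil-2* was lost without *lin-54* replicate 2 (0.45), *lin-54* replicate 3 (0.68) or *mes-4* replicate 3 (0.61). Of 75 cytosolic ribosomal protein genes 3 were higher (4%) and 6 lower (8%), against 12.8% and 21.2% of all genes. The higher ones were *rpl-11.2*, the X-linked *rpl-23A.1* (1.20 ± 0.31) and *rpl-41.1* (0.35 ± 0.10). The groups of *rpl-23A.1* overlapped. *rpl-28* was lower by −0.21 ± 0.06 and lost its call under centring and without *mes-4* replicate 3 (−0.19), and *rpl-41.1* was not called without *lin-54* replicate 3 (0.29).

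Of 35 genes for protein folding and secretion in the endoplasmic reticulum, 23 were higher in *mes-4* and 2 lower, with a median of 0.40. The higher ones were 7 of 7 X-linked members (median 2.51) and 16 of 28 autosomal members (median 0.33). Of all genes 12.8% were higher and 21.2% lower. The shares higher were 28.3% of all X-linked genes, 87.5% of those at wild-type levels of 8 to 10, and 10.3% of autosomal genes. *hsp-3*, one of the BiP chaperones, read 7.57, 7.38 and 6.76 in *lin-54* and 10.27, 10.58 and 11.15 in *mes-4* (3.43 ± 0.33, 10.8-fold). *pdi-6* and *pdi-2*, protein disulfide isomerases, differed by 3.36 ± 0.20 (10.3-fold) and 2.45 ± 0.20 (5.46-fold). None of the 3 overlapped between the genotypes. The further X-linked members were *pek-1*, the PERK kinase of the unfolded protein response (2.98), the translocon subunit gene *trap-2* (2.51), *atf-6*, a stress-activated transcription factor (2.03, or 1.12 without shared probe set types), and *dnj-7*, a DnaJ cochaperone (1.33).

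Here wild type lay between the mutants rather than beside *lin-54*. *hsp-3* was at 9.04 in wild type, where *mes-4* minus wild type was 1.63 (q = 0.0138) and *lin-54* minus wild type was −1.80 (q = 0.0114). *pdi-6* gave 1.89 (q = 0.000193) and −1.47 (q = 0.00267) in the same order. Among autosomal members the BiP gene *hsp-4* read 11.72, 11.70 and 11.60 against 12.71, 12.76 and 12.65 (1.04 ± 0.12, q = 6.99e-05), the splicing target *xbp-1* differed by 1.15, the GRP94 homolog *enpl-1* by 1.00, calreticulin (*crt-1*) by 0.76, and *pdi-3* and *pdi-1* by 0.70 ± 0.08 and 0.33 ± 0.11. The oxidase gene *ero-1* (−0.43) and *dnj-20* (−0.30) were lower. Neither decrease was called with arrays centred, and *dnj-20* was also not called without *lin-54* replicate 1 (−0.21) or 3 (−0.35) or *mes-4* replicate 2 (−0.30) or 3 (−0.25). The increase of *pdi-1* was not called without *lin-54* replicate 3 (0.32) or *mes-4* replicate 1 (0.22). Without probe sets of shared types 20 of the 35 genes remained measured, 11 of them higher and 2 lower.

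Of 50 genes of germ granules and of maternal RNA control 19 were higher in *mes-4* (38%) and 8 lower (16%). The shares of all genes were 12.8% and 21.2%. The median of the list was 0.18, and all 4 X-linked members were higher, as were 28.3% of all X-linked genes. *meg-4*, which encodes a disordered protein of embryonic P granules, read 6.42, 6.58 and 6.10 in *lin-54* and 8.81, 8.75 and 9.17 in *mes-4* (2.54 ± 0.17, 5.83-fold), with wild type at 7.55 and the double mutant at 7.52. The related *meg-1*, *meg-3* and *meg-2* differed by 1.71 ± 0.26, 1.31 ± 0.18 and 0.88. On the autosomes the PUF repressor gene *puf-5* differed by 0.83 ± 0.12, the Nanos gene *nos-2* by 1.21, and *oma-2*, *mex-5* and *pos-1*, regulators of maternal mRNA, by 0.56, 0.60 and 0.37. The lower members included the P granule gene *pgl-2* (−0.77), the CPEB gene *cpb-1* (−0.73) and *nos-3* (−0.46). The call of *nos-3* was lost in 13 alternatives, among them centring (−0.355), leaving out shared probe set types (−0.18), *lin-54* replicate 3 (−0.19) or *mes-4* replicate 2 (−0.21), and that of *pos-1* without *mes-4* replicate 3 (0.25) or *lin-54* replicate 3 (0.39).

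Among 42 genes of small RNA pathways 11 were higher (26.2%) and 8 lower (19%), against 12.8% and 21.2% of all genes. With arrays centred the counts were 12 and 3. The microRNA Argonautes *alg-1* (X) and *alg-2* (II) differed by 1.62 ± 0.22 (3.08-fold) and 1.85 ± 0.23 (3.62-fold), from values of 6.42, 5.51 and 5.87 in *lin-54* to 7.41, 7.92 and 8.03 in *mes-4* for *alg-2*. Without *lin-54* replicate 1 another probe set of *alg-2* had the lowest p, with a difference of 3.13. *nrde-3*, the X-linked nuclear Argonaute of siRNAs, differed by 1.51 ± 0.24. *nrde-1*, of the same nuclear pathway, was lower by −0.39 ± 0.09, and *prde-1*, needed for piRNA precursors, differed by −1.40. Translation factors gave 6 higher (20%) and 9 lower (30%) of 30, or 7 and 5 with arrays centred. The higher ones held all 4 X-linked members (*eef-1A.2*, *ife-2* at 2.84, *pab-2* at 1.42 or 0.84 without *mes-4* replicate 1, *ife-4* at 1.06). The elongation factor *eef-2* differed by 0.59 ± 0.08, and *eif-3.I* and *eif-6*, initiation and ribosome maturation factors, by −1.36 ± 0.19 and −0.67 ± 0.09.

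Oocyte, eggshell and yolk uptake genes, none of which is X-linked, had 16 of 21 members higher (76.2%) and 2 lower (9.52%). The shares of all genes were 12.8% and 21.2%, and the median of the list was 0.60. *perm-2*, a gene of the permeability barrier of the eggshell, read 10.47, 9.35 and 9.19 in *lin-54* and 11.92, 11.89 and 11.70 in *mes-4* (2.16 ± 0.31, 4.48-fold), and *perm-4*, of the same barrier, differed by 2.55 ± 0.42, or 0.69 without shared probe set types. The chitin synthase *chs-1* (0.77 ± 0.12), the sperm-interaction receptor *egg-1* (0.76 ± 0.12), the yolk receptor *rme-2* (0.79 ± 0.14) and the Patched homolog *ptc-1* (0.76 ± 0.12) differed by about the same amount as each other. For *perm-2*, wild type stood at 11.76, and *mes-4* minus wild type was 0.07 (q = 0.782) while *lin-54* minus wild type was −2.09 (q = 0.00372). *perm-5* (−0.47) and *spe-11* (−0.29) were lower, and *spe-11* lost its call in 10 alternatives (−0.19 without *lin-54* replicate 1). The 5 oocyte markers summed to 14.9 to 15.1 in *mes-4*, 14.2 to 14.4 in *lin-54* and 14.8 to 15 in wild type, with 4 of 5 higher. Samples were cut at late pachytene, and the part of oocyte content in these differences was not tested.

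Genes of the gonadal sheath, the somatic cells that wrap the germline, gave, together with other somatic gonad genes, 11 higher and 11 lower of 41, or 26.8% in each direction. The shares of all genes were 12.8% higher and 21.2% lower, and with arrays centred the list gave 12 higher and 6 lower. *tbh-1*, the enzyme of octopamine synthesis that sheath cells and a pair of neurons express, read 6.86, 6.73 and 5.42 in *lin-54* and 9.87, 9.99 and 10.02 in *mes-4*, with wild type at 9.80. It is X-linked, and its difference of 3.63 ± 0.34 (12.3-fold, q = 2.17e-05) came with *mes-4* minus wild type at 0.16 (q = 0.743) and *lin-54* minus wild type at −3.47 (q = 0.000438). *inx-8*, a gap junction innexin of sheath cells, read 8.10, 7.41 and 7.21 against 10.07, 9.95 and 9.43 (2.24 ± 0.31), and it too stood at 10.03 in wild type. The groups of both genes were well apart.

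The 5 sheath markers summed to 10 to 10.6 in *mes-4*, 8.97 to 9.41 in *lin-54* and 10.3 to 10.8 in wild type. *inx-8* was the 1 of 5 called, *inx-9* differed by 0.66 ± 0.29 (q = 0.0537), and the transcription factor markers *lim-7*, *ceh-18* and *fkh-6* differed by −0.11, −0.23 and −0.17 without a call. How much sheath tissue each sample carried was not tested. Of the list, the EGF gene *lin-3* was lower (−0.63 ± 0.08, q = 0.000152). *lfe-2* was higher by 0.55 ± 0.09 in its most significant probe set, and its probe sets disagreed in sign.

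Sperm genes went the other way. All 23 major sperm protein (MSP) genes, which encode the cytoskeletal and signalling protein of nematode sperm, were lower in *mes-4*, 22 of them over 2-fold, with a median of −2.48. *msp-36* read 6.06, 5.76 and 5.77 in *mes-4* and 10.94, 6.95 and 9.52 in *lin-54* (−3.27 ± 0.85, q = 0.00806). *msp-78* and *msp-31* differed by −3.22 ± 0.85 and −3.26 ± 0.91. The *lin-54* arrays differed among themselves: the median MSP level was 10.1, 7.13 and 8.82 on them, 6.28 to 6.65 on the *mes-4* arrays, 6.35 to 6.52 in wild type and 7.70 to 10.2 in the double mutant. MSP genes are near copies of each other, and 22 of the 23 had only probe sets of a shared type, so they count as far fewer than 23 measurements. Without *lin-54* replicate 3, 10 of the 23 lost their call, with all differences still below 0.

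Other sperm genes moved by less. Of 32, 15 were lower (46.9%) and 1 higher (3.12%), against 21.2% and 12.8% of all genes. Their median was −0.19, and 7 of the 15 were called with arrays centred. *gsp-3*, a sperm protein phosphatase, read 5.97, 6.20 and 6.11 in *mes-4* and 7.21, 6.54 and 6.86 in *lin-54* (−0.77 ± 0.15), and *ssp-19* and *ssq-2*, of sperm-specific families, differed by −0.54 ± 0.11 and −0.41 ± 0.09. The 1 higher gene, *spe-39* (0.48 ± 0.09), acts in vesicle traffic in other tissues as well. The amount of sperm transcript in the *lin-54* samples moves with these calls, and its part in the other autosomal decreases was not tested.

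The largest autosomal increases fell into distinct patterns by where wild type stood. After *lin-54* itself, *fbxa-65* and *fbxb-97*, both F-box genes, differed by 3.51 ± 0.41 (11.4-fold) and 3.22 ± 0.35 (9.3-fold). *fbxa-65* read 4.93, 4.67 and 4.08 in *lin-54* and 7.001, 8.48 and 8.71 in *mes-4*, with wild type at 5.22. *F35H10.10* read 5.21, 5.29 and 5.32 against 8.44, 8.52 and 8.91 (3.35 ± 0.13, q = 1.1e-07), with wild type at 6.24. In contrast *ctsa-1.1*, related to the lysosomal protease cathepsin A, and *ddo-3*, a D-aspartate oxidase, read 9.68, 8.08 and 7.55 against 11.68, 11.33 and 10.75 and 8.76, 7.28 and 7.26 against 11.02, 10.65 and 9.77, and wild type, at 11.13 and 10.59, lay with *mes-4*. Their differences were 2.82 ± 0.45 and 2.71 ± 0.43.

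The largest autosomal decreases outside the MSP family were *C54D10.10*, *fipr-17* and *Y48G9A.7*. *C54D10.10* read 4.995, 5.44 and 5.76 in *mes-4* and 9.10, 8.75 and 8.75 in *lin-54* (−3.47 ± 0.24, 11.1-fold, q = 2.9e-06), with wild type at 5.33 and the double mutant at 10.50, above both. *fipr-17*, of a family of small peptides related to fungus-induced genes, had the same form, with 5.07, 5.51 and 5.42 against 8.67, 8.53 and 8.55 (−3.25 ± 0.15) and the double mutant at 9.96. *Y48G9A.7* read 5.43, 4.98 and 5.27 against 8.84, 8.52 and 7.80 (−3.16 ± 0.28), and wild type, at 6.85, lay between them, with *mes-4* minus wild type at −1.62 (q = 0.00534) and *lin-54* minus wild type at 1.53 (q = 0.0102).

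Genes of meiosis and of the cell cycle moved by modest amounts. Of 43 genes of meiotic chromosome structure and recombination 5 were higher and 11 lower, close to the shares of all genes, and with arrays centred 2 of the 11 stayed called as lower. *syp-1*, which encodes a central protein of the synaptonemal complex, was the exception in size, reading 10.28, 9.76 and 10.32 in *mes-4* and 11.14, 11.17 and 11.28 in *lin-54* (−1.08 ± 0.14, q = 0.00015) with wild type at 10.23. *syp-3*, of the same structure, differed by −0.44 ± 0.11, the kleisin gene *coh-3* by −0.40 ± 0.11 and *him-18*, a scaffold of crossover nucleases, by −0.48 ± 0.13, and the last pair lost their calls under centring.

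Of 60 cell cycle genes 21 were higher (35%) and 6 lower (10%), with a median of 0.21. The counts were 27 and 0 with arrays centred, and 7 and 3 without shared probe set types. The phosphatase genes *cdc-25.3* and *cdc-25.2*, which activate cyclin-dependent kinases, differed by 1.76 ± 0.35 and 1.26 ± 0.18, and the B cyclins *cyb-3* and *cyb-2.2* by 0.51 ± 0.09 and 0.48 ± 0.09. Without shared probe set types *cyb-3* differed by 0.25 and was not called (q = 0.0664). *cdk-4*, the 1 X-linked member, differed by 0.85. In 34 genes of DNA replication 10 were higher (29.4%) and 6 lower (17.6%), where the shares of all genes were 12.8% and 21.2%. Among them were *rnr-2*, a subunit of ribonucleotide reductase (0.56 ± 0.10), and the helicase subunit *mcm-6* (0.48 ± 0.11), against *psf-2* of the GINS complex (−0.67 ± 0.13) and the clamp loader subunit *rfc-2* (−0.41 ± 0.09). Histone genes gave 17 higher and 2 lower of 37, with a median of 0.24, among them *his-67* (0.70 ± 0.12), the CENP-A paralog *cpar-1* (0.66 ± 0.14) and *his-4* (0.49 ± 0.10). Core histone genes are near copies, and without shared probe set types 7 were called higher.

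Of 29 genes of germline apoptosis and corpse removal 8 were higher (27.6%) and 4 lower (13.8%), against 12.8% and 21.2% of all genes. They included *egl-1* (0.77), *ced-9* (0.75 ± 0.18), *ced-4* (0.29) and *ced-3* (0.74), genes of the core death pathway, with the X-linked *ced-8* at 0.95 ± 0.15. Without *mes-4* replicate 3 neither *egl-1* (0.47, q = 0.114) nor *ced-3* (0.59, q = 0.0559) was called, and the call of *egl-1* was also lost without *lin-54* replicate 1 (0.67) or 3 (0.69) and with the Benjamini-Hochberg adjustment. The nuclease gene *cps-6* was lower (−0.43 ± 0.09). *ced-10* was higher by 0.54 ± 0.12 in its most significant probe set, but its probe sets disagreed in sign. Stress genes gave 7 higher (25%) and 8 lower (28.6%) of 28, or 8 and 3 with arrays centred. The constitutive chaperone *hsp-1* differed by 0.56 ± 0.13 and the superoxide dismutase *sod-4* by 0.65 ± 0.12.

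Genes of other tissues were dim in wild type, with list medians of 5.50 to 6.60, and most were not called. Neuronal genes gave 13 higher and 30 lower of 91, intestinal genes 3 and 10 of 45, cuticle and hypodermal genes 4 and 9 of 46, and muscle genes 9 and 8 of 37. The shares lower were 33% for neurons, 22.2% for intestine, 19.6% for cuticle and hypodermis and 21.6% for muscle, against 21.2% of all genes, and the shares higher were 14.3%, 6.67%, 8.7% and 24.3%, against 12.8%. With arrays centred, the lower counts became 8, 1, 2 and 2. The higher members included several X-linked genes and genes of cell adhesion. *unc-18*, an X-linked regulator of vesicle fusion, read 6.37, 5.29 and 5.57 in *lin-54* and 7.08, 8.64 and 9.21 in *mes-4* (2.57 ± 0.52), and the attachment genes *unc-112* (kindlin), *ina-1* (an alpha integrin) and *sdn-1* (syndecan, X-linked) differed by 1.73 ± 0.28, 1.04 ± 0.19 and 2.05 ± 0.32, the last by 1.26 without *mes-4* replicate 2. *unc-78*, an X-linked actin-binding gene, differed by 1.20 ± 0.15. Of 26 basement membrane genes, to which the integrins and syndecan belong, 6 were higher (23.1%) and 3 lower (11.5%). *far-2*, a fatty acid and retinol binding protein, differed by 1.53 ± 0.29 and *hlh-30*, a regulator of lysosomal genes, by 1.23 ± 0.18, or 0.35 without shared probe set types. The lysozyme genes *lys-7* (−1.32) and *lys-1* (−1.04) were the intestinal genes more than 2-fold lower. Neither was called with arrays centred, with the Benjamini-Hochberg adjustment or without *mes-4* replicate 3, and *lys-1* lost its call in 14 alternatives. Without *lin-54* replicate 2 they differed by −0.56 and −0.42.

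**Figure D5:**
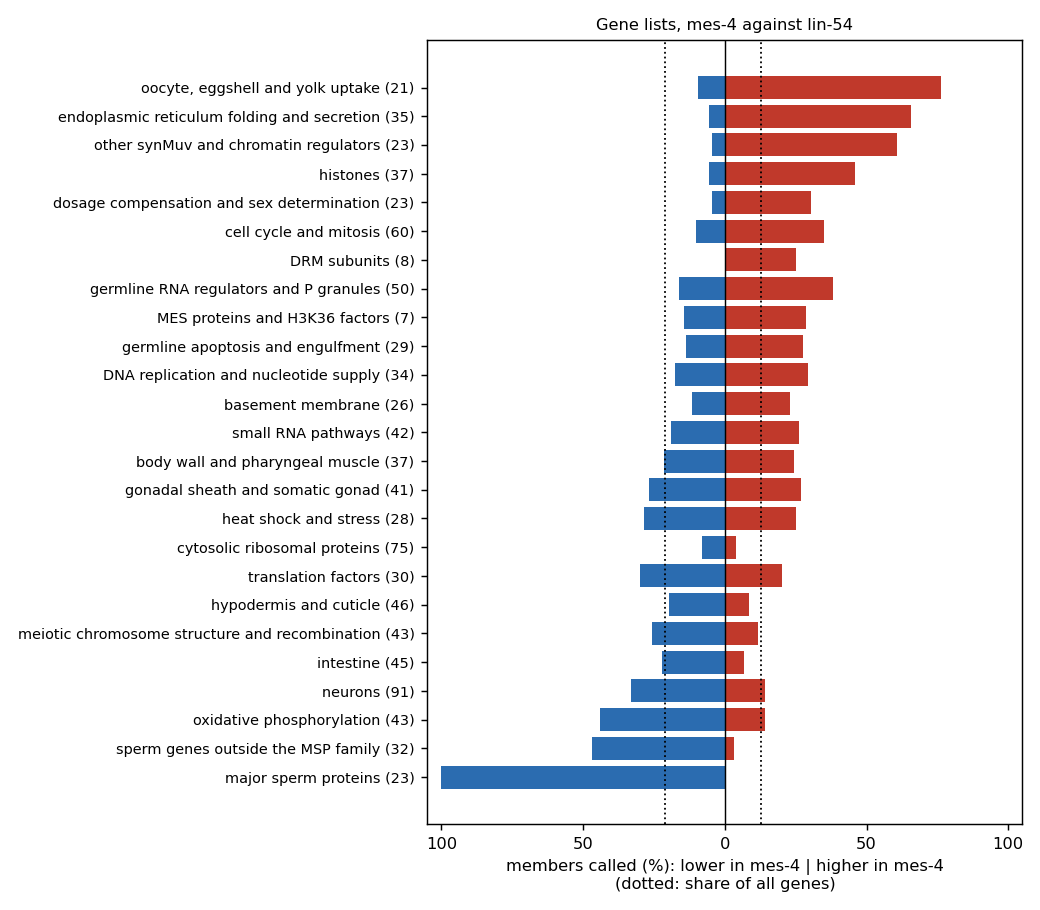
Share of the members of 25 gene lists (number on the array in brackets) called higher in *mes-4* (red, right) or lower (blue, left, also in percent) than in *lin-54*. Dotted lines mark the shares of all genes (12.8% higher and 21.2% lower). The oocyte list (76.2%), the endoplasmic reticulum list (65.7%) and the chromatin list (60.9%) have the highest shares higher, and all of the MSP genes are lower.

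Mitochondrial ribosomal proteins, counted after their values had been seen, ran with the autosomal respiratory subunits. None of the 59 is X-linked. Of 34 large subunit genes (*mrpl*) 23 were lower and 1 higher, with a median of −0.41, and of 25 small subunit genes (*mrps*) 16 were lower and 0 higher, with a median of −0.45. Their wild-type medians were 10.4 and 10.6, so they were bright genes, and 1 exceeded 2-fold. Subunits of the vacuolar proton pump (*vha*), counted in the same way, gave 8 higher and 0 lower of 18, of which 3 are X-linked and all 3 higher. Beside these counts, 12.8% of all genes were higher and 21.2% lower.

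Wild type and the double mutant were placed on the line from the *lin-54* mean (0) to the *mes-4* mean (1) for the genes more than 2-fold apart. For the 421 X-linked genes higher in *mes-4*, median levels were 6.46 in *lin-54*, 7.11 in wild type, 7.61 in the double mutant and 8.49 in *mes-4*. Wild type was nearer *lin-54* for 353 of them (83.8%), at a median position of 0.308 (quartiles 0.182 and 0.444). The double mutant was nearer *mes-4* for 223 (53.0%), at 0.526, with quartiles as far apart as 0.346 and 0.85.

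Autosomal genes had another arrangement. For the 325 autosomal genes over 2-fold higher, leaving out *lin-54*, wild type lay at 0.542 (quartiles 0.335 and 0.706) and was nearer *mes-4* for 54.5%, and the double mutant was nearer *lin-54* for 80.6%, at 0.34. For the 109 autosomal genes over 2-fold lower, leaving out MSP genes, wild type lay at 0.378 and the double mutant at 0.451. These positions are descriptions. The single-mutant means that set the line also chose the genes. Wild type and the double mutant entered the choice only through the estimated spread behind p and q.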

How the data were processed

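Probe intensities were turned by the authors into RMA values (robust multichip average) in affy after quantile normalization, and the deposited values are log2 levels of Affymetrix probe sets. Versions are not given in the sources used here. No further normalization was applied. Of 22548 probe sets (77 controls apart) 20766 named 1 gene, 887 several and 895 none. Using limma 3.58.1 (R 4.3.3), a linear model gave each genotype 1 mean over all 12 arrays, with 8 residual and 3.45 prior degrees of freedom, and *mes-4* minus *lin-54* was tested. Storey q-values (lambda 0 to 0.9 in steps of 0.05) were taken over all non-control probe sets, with an estimated share of unchanged probe sets of 0.423. A gene was represented by the probe set with its lowest p, which favours larger differences in genes with several (2981 genes), and was called at q at or below 0.05. At an unadjusted p under 0.05, 6440 genes passed. For X minus autosome medians, probe sets were averaged within each gene. The model was tested on simulated data.

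The comparison, the 25 gene lists and the markers were chosen with earlier results of these data known. Genes are named by a rule: both targets, the 6 largest called differences in each direction on the X and on autosomes without overlap of arrays, the 4 members with the lowest p of each list, markers, and X-linked genes with their autosomal relatives. Further list members named were chosen after their values were seen. Replicates are separate samples per the study's methods, and the number of arrays limits precision.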

Additional observations from a re-analysis of the deposited data

How the results depend on the processing

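The direction of the X-linked differences held under each alternative run. The count of X-linked genes higher in *mes-4* ranged from 593 to 670 when any 1 of the 12 arrays was left out, of X-linked genes over 2-fold higher (a threshold chosen after seeing the data) from 375 to 457, and of autosomal genes over 2-fold higher or lower from 271 to 397 and from 123 to 155. The X-linked genes over 2-fold lower numbered 0 or 1. The difference of X minus autosome medians ranged from 0.14 to 0.153 with 1 array out. Counts of small decreases were less stable. Leaving out 1 array gave 1871 to 4119 lower genes, 138 to 492 on the X and 1721 to 3627 on autosomes, and 1659 to 2252 higher genes with 1066 to 1582 autosomal. With only the single-mutant arrays in the model, 2352 genes were lower, 211 on the X and 2141 on autosomes. With the Benjamini-Hochberg adjustment these were 1961, 188 and 1773, and with arrays centred on their autosomal median 1204, 90 and 1114. With probe sets above the median level only, 8600 genes were tested and 2388 were lower, 165 on the X. Without shared probe set types, 13618 genes were tested, 1424 were higher (953 autosomal), and 78 autosomal genes were over 2-fold lower. Of the 161 genes whose values are given, 148 were called, and 118 of these kept their call and sign under all 21 alternatives that measured them. Reversals were *ced-10* with the mean of its probe sets (−0.014) and with 1 array out (−0.533 to 0.686, negative without *lin-54* replicate 2), *lfe-2* without shared types (−0.14), *dnj-20* above the median level (0.0516), and with 1 array out *rpl-11.1* (−0.0189 to 0.0401, negative without *lin-54* replicate 3) and *vit-6*, which was not called (−0.782 to 1.52, negative without *lin-54* replicate 3 or *mes-4* replicate 1). Apart from the mean of probe sets, each alternative took the probe set of a gene with the lowest p anew. For a gene with several, its value can therefore come from another probe set, as those of *vit-6* without *lin-54* replicate 3 or *mes-4* replicate 1 did. The causes were not otherwise tested.

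Same-numbered *mes-4* and *lin-54* arrays did not deviate together (correlations of their deviations 0.04, −0.07 and −0.00), so the numbers were not taken as pairs. With the replicate number as a block, 2333 genes were higher and 4131 lower, 671 and 446 of them X-linked and 1662 and 3685 autosomal, and *nduf-2.2*, *sdha-2*, *mes-3* and *inx-9* passed the threshold (q = 0.0416, 0.0479, 0.0475 and 0.027). The mean of the 3 same-numbered differences of X minus autosome medians was 0.145.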
